A study of Homo sapiens with 12 samples.

Results

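To describe what decitabine alone did to the transcriptome of HUCCT1 cells, 4 of the 12 RNA-seq libraries of the study were compared: 2 libraries of cells given 1 µM decitabine and 2 of cells given the vehicle DMSO. HUCCT1 is an established human cholangiocarcinoma (CCA) cell line, labelled wild type in all 4 libraries, and every culture was collected after 72 h, on day 3. The other 8 libraries come from EGI-1, another CCA line, given DMSO, 0.5 µM decitabine, talazoparib or both drugs. Each arm is 1 line in 1 experiment, and no label or method says that the libraries of an arm come from separate cultures, so p-values measure the spread between these samples, which may be technical. All 60651 genes of the deposited count table were considered, and 22479 passed the filter on low counts and were tested.

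Decitabine is a cytidine analogue that is built into DNA during replication and traps DNA methyltransferases there, so that the copied strand loses methylation over the following divisions. It is known for reactivating genes whose promoters are rich in CpG dinucleotides and methylated, among them germline genes that most somatic cells keep silent and tumour suppressors that cancers have silenced. CCA is a cancer of the bile duct epithelium, whose cells are marked by the keratins KRT7 and KRT19.

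The libraries held between 32519985 and 34965627 counts in genes. Levels are given as CPM, a gene's counts relative to its library's total, scaled by TMM factors of 0.966 to 1.03. The biliary keratins were abundant in every library: KRT7 stood at 5870 and 6730 CPM with DMSO and at 3630 and 4150 CPM with decitabine, and KRT19 at 2230 and 2750 CPM against 1420 and 1890 CPM. Both groups were separate for both genes. The values of the arms did not overlap in 14652 of the 22479 genes tested (65.2%), called or not. Of 14 biliary epithelium markers tested, 8 were lower (57.1%) and 4 higher (28.6%), with a median log2 fold change of -0.49. Over all genes tested, 13.9% were lower and 19.6% higher. Markers of other cell types also moved, at low levels. Among the endothelial markers, 7 of 8 tested were higher and the list summed to 11.6 to 12.4 CPM with DMSO and 46.8 to 48.1 CPM with decitabine. Of the fibroblast and muscle markers, 5 of 8 were higher and 1 was lower (40.7 to 42.1 CPM against up to 185 CPM, most of it COL1A1), and of the leukocyte markers, 3 of 5 were higher (9.22 to 10.2 CPM against 15.1 to 15.6 CPM). Several of these markers had few DMSO counts, such as KDR (0 and 4), COL1A2 (1 and 1) and CD3E (0 and 1). Such members passed the filter only through their decitabine libraries and could only be called higher. The numbers higher in these lists therefore do not compare with the shares over all genes. Hepatocyte markers were mostly untested for low counts, with 1 of 2 higher, and none of 3 red blood cell markers was higher and 1 was lower. Whether these values have a part in the results below was not tested, and in bulk RNA a change in the share of cells and a change in RNA per cell cannot be told apart.

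The promoters of 6 genes on which the results turn are shown first, as RefSeq gives them on GRCh38.p14, from 250 bases before to 50 after the start of transcription. DAZL, UCHL1 and MAGEA4 stand for the genes that were silent with DMSO and counted with decitabine, and their CG dinucleotides, the targets of DNA methylation, are in capitals.
DAZL (chr3:16605374-16605673, minus strand): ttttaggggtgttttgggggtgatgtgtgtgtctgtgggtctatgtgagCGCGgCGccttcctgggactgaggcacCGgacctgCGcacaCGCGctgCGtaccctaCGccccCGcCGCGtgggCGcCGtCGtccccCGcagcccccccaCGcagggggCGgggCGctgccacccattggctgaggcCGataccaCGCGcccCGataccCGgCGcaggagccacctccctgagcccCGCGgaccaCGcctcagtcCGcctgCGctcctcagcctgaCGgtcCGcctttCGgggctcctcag
UCHL1 (chr4:41256678-41256977, plus strand): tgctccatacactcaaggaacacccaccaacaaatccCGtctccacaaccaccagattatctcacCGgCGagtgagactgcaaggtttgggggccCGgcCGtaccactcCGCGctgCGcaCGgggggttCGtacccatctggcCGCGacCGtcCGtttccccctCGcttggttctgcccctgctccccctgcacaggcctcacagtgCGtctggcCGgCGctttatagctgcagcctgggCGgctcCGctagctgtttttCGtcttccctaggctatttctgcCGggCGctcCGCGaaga
MAGEA4 (chrX:151912224-151912523, plus strand): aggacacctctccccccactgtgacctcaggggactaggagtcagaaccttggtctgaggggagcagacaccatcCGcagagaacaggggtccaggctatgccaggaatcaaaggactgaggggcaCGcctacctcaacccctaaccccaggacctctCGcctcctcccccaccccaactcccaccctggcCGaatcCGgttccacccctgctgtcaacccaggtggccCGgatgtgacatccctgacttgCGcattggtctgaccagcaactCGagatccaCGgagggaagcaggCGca
CXCL1 and IL6 stand for the inflammatory genes that rose, and capitals mark the letters GGNNTTTCC on either strand, a form of the NF-kB site.
CXCL1 (chr4:73869143-73869442, plus strand): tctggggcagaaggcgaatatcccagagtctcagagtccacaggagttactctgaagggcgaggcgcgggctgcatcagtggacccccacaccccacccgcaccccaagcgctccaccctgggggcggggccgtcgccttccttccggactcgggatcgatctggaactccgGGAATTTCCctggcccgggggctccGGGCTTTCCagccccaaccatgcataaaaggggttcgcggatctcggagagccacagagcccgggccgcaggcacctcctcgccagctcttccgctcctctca
IL6 (chr7:22726950-22727249, plus strand): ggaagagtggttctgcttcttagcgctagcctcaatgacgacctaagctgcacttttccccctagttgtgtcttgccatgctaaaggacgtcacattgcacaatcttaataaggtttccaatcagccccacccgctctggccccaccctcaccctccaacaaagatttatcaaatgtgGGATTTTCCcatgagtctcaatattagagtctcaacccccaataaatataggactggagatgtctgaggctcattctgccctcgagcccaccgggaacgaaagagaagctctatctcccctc
CCNB2 stands for the mitotic genes that fell, and capitals mark CCAAT and TTTGAA (the cell cycle homology region, CHR) on either strand.
CCNB2 (chr15:59104896-59105195, plus strand): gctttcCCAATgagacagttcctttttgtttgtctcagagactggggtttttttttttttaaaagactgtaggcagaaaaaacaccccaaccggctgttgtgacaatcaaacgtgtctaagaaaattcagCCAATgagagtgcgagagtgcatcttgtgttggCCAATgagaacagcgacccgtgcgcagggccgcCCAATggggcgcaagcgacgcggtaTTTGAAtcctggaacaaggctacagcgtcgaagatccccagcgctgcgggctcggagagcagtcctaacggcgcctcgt
The DAZL window held 33 CG dinucleotides, the UCHL1 window 25 and the MAGEA4 window 10.

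Decitabine changed the levels of 7525 genes, 33.5% of those tested (edgeR quasi-likelihood test, Benjamini-Hochberg adjusted p under 0.05). Higher levels were found for 4404 genes (19.6% of those tested) and lower levels for 3121 (13.9%). Among the 4404 were 732 of the 734 tested genes with at most 3 counts in each DMSO library. These passed the filter only through their decitabine libraries, so their direction was fixed, and they enter the sizes that follow. The directions differed in size: the median fold change was 2.61 among the genes that were higher and 0.669 among those that were lower, and of the 3267 calls past a log2 fold change of 1, 2694 were higher and 573 were lower. Among the 13649 genes whose log2 CPM averaged 1 or more, the split was near even, with 2526 higher and 2703 lower. The share lower rose with the level with DMSO. It was 11.8% at 1 to 10 CPM and 22.6% at 10 to 100 CPM, where 16.9% and 15.9% were higher. Among the 75 genes in the highest class of level, 52% were lower and 1.33% higher. Gene lists are set beside the shares over all genes tested, which are not matched for level. The median log2 fold change over all genes tested was 0.00. Replicates correlated at r = 0.993 in both arms across genes, and the arms' means at 0.923 (log2 CPM; genes are not independent replicates). A single gene's 2 against 2 values cannot give an exact two-sided permutation p below 0.333, so gene-wise tests rest on the fit across all genes.

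**Figure D1:**
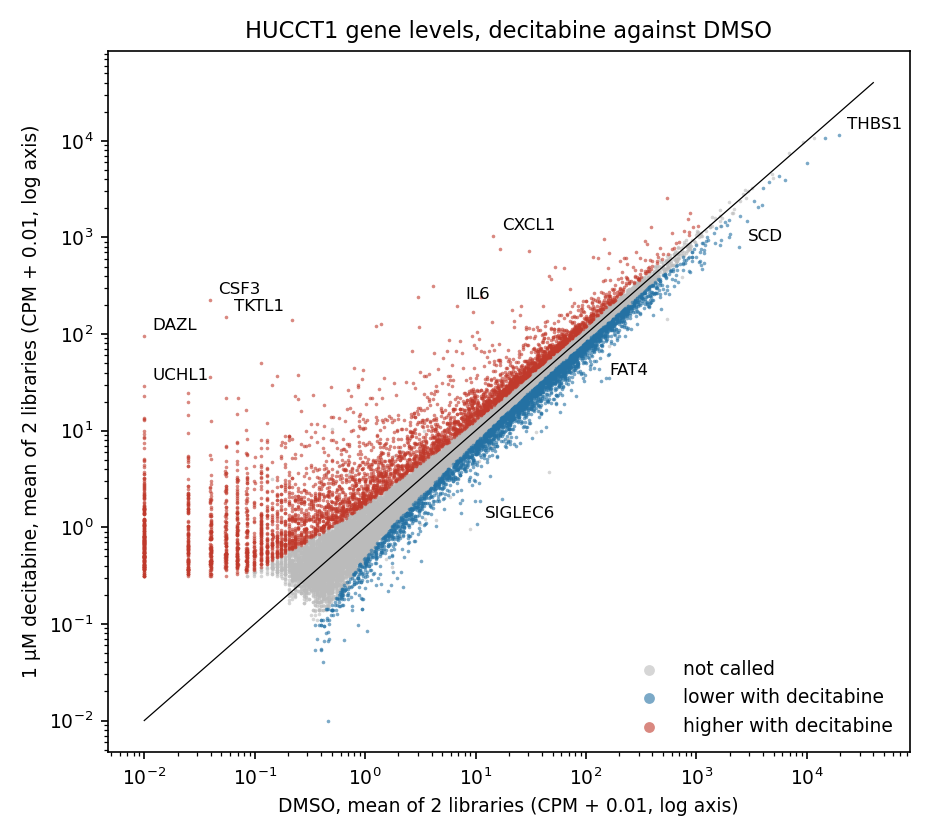
Mean level of each tested gene in HUCCT1 with DMSO (x axis) and with 1 µM decitabine (y axis), 2 libraries each, in CPM + 0.01 on log axes; colours give the call at adjusted p under 0.05 and the line marks equal levels. The 4404 genes that were higher reach far from the line at low DMSO levels, while the 3121 that were lower stay near it. Genes at the DMSO floor were tested only if their decitabine libraries passed the filter.

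The largest changes were in genes with few or no counts in the DMSO libraries. Of 5095 protein-coding genes with at most 3 counts in each DMSO library, 483 (9.48%) had 10 or more counts in both decitabine libraries, and 55 of them had 100 or more. The reverse was rare: of 3839 genes with at most 3 counts in each decitabine library, 3 (0.0781%) had 10 or more counts in both DMSO libraries, namely HBA2, LMNTD2 and NKX6-2, named here after their values were seen. Long non-coding RNA genes showed the same pattern, with 213 of 10303 switched on and 4 of 9277 switched off. On the X chromosome, 70 of 343 silent protein-coding genes (20.4%) came on, and 28.2% of all X-linked genes tested were higher, against 19.6% over the genome. These are counts with no test, since a gene that enters the fit only through its decitabine libraries had to differ. For the same reason no p-value is given for any gene whose DMSO counts alone would not have passed the filter.

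Germline genes were among them. DAZL, an RNA-binding protein of germ cells, had 0 and 0 counts with DMSO and 3598 and 2915 with decitabine, at least 1110-fold higher against a floor of 3 counts per library. DDX4, the germ cell RNA helicase also called VASA, went from 0 and 0 counts to 137 and 119, and MAEL, a factor of transposon silencing in testis, from 8 and 2 counts to 1356 and 1160. Both arms were separate for all 3 genes. Of 66 germline and meiosis genes in the table, 37 were tested, of which 33 were higher and none was lower. With DMSO, 17 of the 37 were at the floor, and 19 of the 66 were at the floor in all 4 libraries. Members with few DMSO counts, MAEL among them, passed the filter only through decitabine and could not be called lower. The absence of lower calls therefore says little about this list. TEX15, a meiotic recombination and transposon-silencing factor, had 0 and 0 counts against 59 and 62 (at least 20.8-fold higher), and TEX11, an X-linked meiosis gene, 0 and 0 against 63 and 48 (at least 18.9-fold higher).

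Cancer-testis antigens, proteins made in testis and in some tumours, behaved alike. MAGEA4, a member of the MAGE family on the X chromosome, had 0 and 0 counts with DMSO and 454 and 466 with decitabine, at least 158-fold higher. TKTL1, a transketolase-like protein, rose from 1 and 2 counts to 5256 and 4973, at least 1750-fold. MAGEB2 had 0 and 1 against 800 and 899 counts, and MAGEA8 had 0 and 0 against 113 and 111. Every decitabine library lay far above every DMSO library for these 4 genes. Of 94 listed antigens, 42 were tested, 41 were higher and 0 were lower. At the DMSO floor were 30 of the 42, which entered the test only through decitabine and could not be called lower. Of the 94, 27 were at the floor throughout. The summed level of the list was 7.28 and 8.85 CPM with DMSO and 341 and 356 CPM with decitabine. Many of these genes have near-identical copies, so reads may be divided among them or lost, and single MAGE values are uncertain for that reason.

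The other genes named by size of change were of mixed function. CSF3, the neutrophil growth factor G-CSF, had 0 and 2 counts with DMSO and 7010 and 8225 with decitabine (at least 2620-fold higher). UCHL1, a deubiquitinase of neurons and neuroendocrine cells, had 0 and 0 against 936 and 1028 counts (at least 337-fold). TEX13C, an X-linked testis gene, had 0 and 0 against 843 and 725 counts, at least 268-fold higher. Neither arm overlapped the other in any of the 3, which the rule for naming the largest rises required. LDOC1 (0 and 0 against 446 and 450 counts) and PNMA6E (0 and 2 against 1132 and 1317) are domesticated retrotransposon genes. HDGFL1 went from 0 and 0 to 426 and 463 counts, OTUD6A, a deubiquitinase, from 0 and 0 to 324 and 359, and CCBE1, a factor of lymphatic vessel growth, from 0 and 0 to 335 and 299. Among long non-coding RNAs, PICSAR went from 0 and 0 to 175 and 155 counts, LINC02864 from 0 and 1 to 195 and 150, and OVAAL from 2 and 1 to 260 and 214. Among the genes named here and below, UCHL1, MAGEA4, TKTL1, CCBE1, IL6, ICAM1, TNFAIP2, TNFAIP3, GBP5, CFTR, COL1A1, SPARC, PEG10, DIO3, IGF2, THBS1, IDH1, KRT7, KRT13, CDKN1A, BRCA1, SIGLEC6, INTS3, XYLT1 and others overlap an annotated gene on the other strand, and whether the counting used strand is not given in the sources used here, so reads of the overlapping genes cannot be told apart.

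Tumour suppressors and Wnt antagonists known for promoter methylation were higher in 24 of 38 tested members and lower in 6, with a median log2 fold change of 0.93 against 0.00 over all genes; 8 of the 38 were at the DMSO floor. SOX17, an endoderm transcription factor that represses Wnt signalling, stood at 0.719 and 0.652 CPM with DMSO and at 22.5 and 30.3 CPM with decitabine (log2 fold change 5.26 ± 0.21 SE, adjusted p = 2.56e-16). SFRP1, a secreted Wnt antagonist, stood at 0.12 and 0.148 CPM against 4.7 and 4.7 CPM (log2 fold change 5.09). Neither gene's arms overlapped. TIMP3, an inhibitor of matrix metalloproteinases, rose from 0 and 1 counts to 706 and 661 (at least 234-fold), RUNX3, a transcription factor, from 0 and 0 to 99 and 89 (at least 32.2-fold) and CCNA1, the germline cyclin A, from 0 and 0 to 56 and 49 (at least 18-fold). The highest member, THBS1, the matrix glycoprotein thrombospondin 1, went the other way, from 19800 and 19400 CPM to 11900 and 10800 CPM (-0.79 ± 0.10, adjusted p = 4.42e-07).

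The switched-on genes had more CpG in their promoters than genes that stayed silent. Over windows of the same 300 bases around the GENCODE canonical starts, the median number of CG dinucleotides was 19 in the 483 switched-on genes and 6 in the 3659 that stayed at the floor in all 4 libraries, against 26 over all protein-coding genes tested. A window with over 50% GC and an observed-to-expected CpG ratio over 0.6 was found for 56.3%, 28.4% and 78% of these sets. The 2 lists of testis genes differed from each other: the median was 25 in the 33 germline genes that were higher and 13 in the 41 cancer-testis antigens. No test was made, since these sets were chosen by their counts.

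Transcripts of the methylation machinery were lower more often than higher. DNMT1, the maintenance methyltransferase that decitabine traps, stood at 320 and 344 CPM with DMSO and at 265 and 269 CPM with decitabine (log2 fold change -0.31 ± 0.11 SE, adjusted p = 0.0227), without overlap. That call was lost without DMSO replicate 2 (adjusted p = 0.14), without decitabine replicate 1 (0.147) and without decitabine replicate 2 (0.119). UHRF1, which brings DNMT1 to newly copied DNA, fell from 207 and 227 CPM to 131 and 135 CPM (-0.71 ± 0.11, adjusted p = 1.01e-05), and HELLS, a remodeller that opens nucleosomes for methylation, from 133 and 106 CPM to 71.8 and 63.1 CPM (-0.82 ± 0.12). DNMT3B, a de novo methyltransferase, rose from 27.8 and 31.7 CPM to 42.3 and 46.1 CPM (0.57 ± 0.12, adjusted p = 0.000508), whereas DNMT3A, the other one, stood at 9.88 and 9.3 CPM against 9.36 and 10.3 CPM (0.04, 95% confidence interval -0.27 to 0.35). In all, 10 of 23 methylation writers, readers and erasers were lower and 2 were higher (median -0.10), and without decitabine replicate 2 the number lower was 5. IDH1, whose product the TET demethylases use, had the largest fall, from 86.3 and 73.8 CPM to 45 and 39.1 CPM (-0.93 ± 0.12, adjusted p = 7.43e-07).

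Genes of decitabine uptake and nucleotide metabolism went both ways, with 6 of 26 tested members higher (23.1%) and 8 lower (30.8%). The shares over all genes tested were 19.6% and 13.9%. Among genes at 10 to 100 CPM with DMSO, they were 15.9% and 22.6%. Whether the list differed from genes of its own level was not tested. Fewer members were lower without decitabine replicate 1. DCK, the kinase that activates decitabine, stood at 18.6 and 17.7 CPM with DMSO and at 19.6 and 18.1 CPM with decitabine, and its arms overlapped (log2 fold change 0.05, 95% confidence interval -0.21 to 0.32). NT5E, the surface nucleotidase CD73, fell from 250 and 229 CPM to 114 and 115 CPM (-1.06 ± 0.11, adjusted p = 1.77e-08), and UPP1, a uridine phosphorylase, rose from 126 and 124 CPM to 204 and 235 CPM (0.81 ± 0.11, adjusted p = 1.71e-06).

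Inflammatory genes were the most expressed group that rose. NF-kB is a transcription factor family that turns on chemokines, cytokines and its own inhibitors, and the list of its targets and of inflammatory mediators had 63 of 82 tested members higher and 7 lower, with a median log2 fold change of 1.40; only 3 of the 82 were at the DMSO floor. Summed over the list, levels were 6375 and 6727 CPM with DMSO and 16720 and 17690 CPM with decitabine. CXCL6, a neutrophil-attracting chemokine, rose from 1.26 and 1.24 CPM to 109 and 132 CPM (log2 fold change 6.59 ± 0.17 SE, adjusted p = 3.04e-20). CCL20, which attracts cells bearing CCR6, rose from 1.5 and 1.24 CPM to 132 and 119 CPM (6.52 ± 0.16, adjusted p = 1.95e-20), and CXCL3, another neutrophil chemokine, from 4.01 and 4.27 CPM to 278 and 346 CPM (6.23 ± 0.15, adjusted p = 1.95e-20). All decitabine values lay above all DMSO values for these chemokines.

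Neighbouring chemokines and cytokines, named after their values were seen except for IL6, moved alike. CXCL1 stood at 13.1 and 15.8 CPM with DMSO and at 904 and 1150 CPM with decitabine, a 70.9-fold rise, and CXCL8 (interleukin 8) at 17.5 and 15.5 CPM against 707 and 828 CPM, a 46.6-fold rise. IL6, the acute-phase cytokine, stood at 6.05 and 7.46 CPM against 183 and 210 CPM (29.1-fold, adjusted p = 4.83e-19). The feedback inhibitors of NF-kB rose less: TNFAIP3 (A20) went from 5212 and 5663 counts to 24931 and 22371, a 4.25-fold change, and NFKBIA from 68.6 and 75.9 CPM to 150 and 188 CPM, a 2.34-fold change. The adhesion molecule ICAM1 rose 7.61-fold, from 61 and 65.9 CPM to 481 and 485 CPM. TNFAIP2, the list's highest member and a TNF-induced gene, rose 4.79-fold, from 514 and 559 CPM to 2510 and 2630 CPM (adjusted p = 7.26e-15). TNF itself had 0 counts in all 4 libraries, and in all 12 of the series. GGNNTTTCC was present on either strand in the 300-base windows of 31 of the 63 members that were higher (49.2%), against 6.58% of all protein-coding genes tested. This motif was added after the values were seen, a match says only that the letters are there, and the list was built from known NF-kB targets.

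Interferon-stimulated genes did not move as a group. Of 68 tested members, 20 were higher (29.4%) and 17 were lower (25%), against 19.6% and 13.9% over all genes tested. The median log2 fold change was 0.07. GBP5, a guanylate-binding protein, had 3 and 0 counts with DMSO and 137 and 96 with decitabine (at least 39.7-fold higher), LAMP3 rose from 2.16 and 1.69 CPM to 9.87 and 10.1 CPM and the antiviral GTPase MX2 from 1.59 and 1.36 CPM to 7.11 and 7.2 CPM (2.28 ± 0.21, adjusted p = 4.94e-09). HERC5, the ligase that attaches ISG15, rose from 3 and 4 counts to 35 and 23. Nucleic acid sensors and their adaptors start the interferon response to viral or endogenous RNA and DNA. Of 34 tested, 5 were higher (14.7%) and 6 lower (17.6%), near the shares over all genes tested (median 0.08). NLRP1, an inflammasome sensor, rose from 3.23 and 4.09 CPM to 23.6 and 21.4 CPM (2.62 ± 0.16, adjusted p = 1.17e-12), and TLR3, the endosomal sensor of double-stranded RNA, fell from 8.39 and 6.75 CPM to 2.22 and 1.63 CPM (-1.97 ± 0.21, adjusted p = 6.02e-08).

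Genes derived from endogenous retroviruses and retrotransposons, whose promoters are often methylated, were higher in 14 of 23 tested members (60.9%) and lower in 3 (13%). Of all genes tested 19.6% were higher and 13.9% lower. At the DMSO floor were 5 of the 23. Fewer members were higher without DMSO replicate 1 or without decitabine replicate 1. PNMA5, a paraneoplastic antigen gene of the X chromosome, rose from 4 and 10 counts to 4720 and 4831 (log2 fold change 9.36). PEG10, an imprinted gene and the highest of the list, fell from 468 and 463 CPM to 258 and 223 CPM (-0.95 ± 0.11, adjusted p = 1.23e-07). Repeat elements themselves are not features of the count table. Imprinted genes, which keep methylation on 1 parental copy, were split, with 8 of 32 higher and 8 lower (25% each, median 0.01). The shares over all genes tested were 19.6% and 13.9%. DIO3, a deiodinase, rose from 3 and 11 counts to 288 and 273, and IGF2, a growth factor, from 0 and 0 to 49 and 25 (at least 12.6-fold). Clustered protocadherins, adhesion genes chosen by promoter methylation in neurons, had 8 of 18 higher (44.4%) and 3 lower (16.7%), beside the same shares over all genes. Fewer of them were higher without DMSO replicate 2, without decitabine replicate 1 or without decitabine replicate 2.

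MHC class I presentation genes could be read only in part. Of 30 listed, 21 were tested, with 3 higher (14.3%) and 2 lower (9.52%), each below the share over all genes tested (median 0.12). ULBP2, a ligand of the activating receptor NKG2D, rose from 10.9 and 10.6 CPM to 15.9 and 14.8 CPM (0.51 ± 0.14, adjusted p = 0.00516), whereas the ligands MICA (5 and 8 counts against 3 and 3) and MICB (0 and 0 against 0 and 1) were too low to test. The MHC region was depleted of counts as a whole: between positions 29000000 and 33500000 of chromosome 6, 130 of 176 protein-coding genes had at most 3 counts in every HUCCT1 library, against 158 of 867 on the rest of the chromosome. RPS18, a ribosomal protein gene in that region which every cell uses, had 1 to 3 counts in the 4 libraries and 0 to 5 across all 12. Low values of HLA-C (15, 9, 12 and 12 counts), TAP1, TNF, MICA and MICB therefore do not show that these genes were silent, and the cause was not tested.

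Genes of the cell cycle fell together, by modest amounts. Of the G2/M list, 44 of 54 tested members (81.5%) were lower and 1 was higher, with a median log2 fold change of -0.54, and of the S phase list 28 of 43 (65.1%) were lower and 0 were higher (median -0.41), 17 being lower without decitabine replicate 2. No member of either list was at the floor. MKI67, the proliferation marker Ki-67, fell from 966 and 1010 CPM to 687 and 575 CPM (-0.65 ± 0.11 SE, adjusted p = 3.86e-05). PSRC1, a spindle protein, fell from 38.6 and 45.4 CPM to 20.1 and 22.2 CPM (-0.99 ± 0.12) and CDCA7, a partner of HELLS, from 24.3 and 22.2 CPM to 8.27 and 8.77 CPM (-1.45 ± 0.14, adjusted p = 5.3e-09). The arms did not overlap for any of them.

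The other division lists fell as well. Among kinetochore, centromere and checkpoint genes, 44 of 58 were lower and 2 higher (median -0.45). BUB1, a checkpoint kinase, fell from 143 and 128 CPM to 73 and 63.7 CPM (-0.99 ± 0.11, adjusted p = 1.34e-07), and CENPF, a kinetochore protein, from 10055 and 9040 counts to 5771 and 4704 (-0.90 ± 0.11). Of replication licensing and fork genes, 38 of 61 were lower and 1 higher (median -0.40). The helicase subunit MCM6 fell from 136 and 125 CPM to 68 and 67 CPM (-0.95 ± 0.11, adjusted p = 1.28e-07) and MCM5 from 193 and 208 CPM to 110 and 110 CPM (-0.87 ± 0.11).

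Cell cycle motifs were counted in the promoters of the genes that fell. TTTGAA, the CHR bound by the repressor complexes of G2/M genes, was present in 36 of 44 G2/M genes that were lower (81.8%; GENCODE starts) and in 63.2% of the 38 with a RefSeq promoter, against 9.42% of all protein-coding genes tested and 13.3% of all that were lower. CCAAT was present in 75% of the same 44, against 35.7%. In the 28 S phase genes that were lower, TTTGAA was present in 0, while the E2F forms TTTGGCGC and TTTCCCGC were present in 25% and 39.3%, against 0.976% and 2.55% of all tested. CCNB2, the cyclin whose promoter is printed above for its CCAAT boxes and CHR, fell from 95.7 and 92.4 CPM to 60.8 and 58.6 CPM (-0.66 ± 0.11, adjusted p = 3.13e-05; named after its values were seen). Both strands were searched, CCAAT and TTTGAA do not overlap, and the lists were built from known cell cycle genes.

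Homologous recombination and Fanconi anemia genes, which repair double-strand breaks and crosslinks, fell with the cell cycle lists: 23 of 40 were lower (57.5%) and 0 were higher (median -0.40). Of all genes tested 13.9% were lower and 19.6% higher. BRIP1, the helicase FANCJ, fell from 74 and 56.6 CPM to 31.9 and 29.7 CPM (-1.08 ± 0.13, adjusted p = 2.02e-07), BARD1, the partner of BRCA1, from 61.7 and 51.1 CPM to 30.6 and 29.1 CPM (-0.92 ± 0.12), and BRCA1 itself from 103 and 94.5 CPM to 60.3 and 53.3 CPM (-0.80 ± 0.11, adjusted p = 3.47e-06).

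Replication-dependent histone genes, transcribed in S phase, were lower in 38 of 63 tested members and higher in 4 (median -0.59), and summed to 4165 and 4215 CPM with DMSO and 2599 and 2811 CPM with decitabine. The 4 that were higher were all near silent before. H4C6 had 0 and 0 counts with DMSO and 229 and 279 with decitabine (at least 87.3-fold higher), and H3C8 had 1 and 4 against 467 and 637 (log2 fold change 7.69). H2BC1 and H1-6, the testis forms of H2B and H1, had 0 and 2 against 43 and 29 counts and 11 and 3 against 103 and 118 counts. Coding sequences of H4 and H3 genes are nearly identical between copies, so single histone values are uncertain.

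Genes of CDK inhibition, lamins and senescence chromatin were mostly lower: 16 of 23 were lower and 2 higher (median -0.41), and 10 were lower without decitabine replicate 1. The 2 that were higher were CDKN1A and CDKN2D. CDKN1A (p21), a CDK inhibitor, rose from 3542 and 4254 counts to 5915 and 6493 (log2 fold change 0.64 ± 0.12 SE, adjusted p = 9.85e-05), and CDKN2D (p19) from 8.36 and 9.06 CPM to 19 and 18.4 CPM (1.11 ± 0.14, adjusted p = 6e-07). LMNB1, the lamin that senescent cells lose, fell from 230 and 224 CPM to 91.9 and 101 CPM (-1.24 ± 0.11, adjusted p = 1.37e-09). CDKN2C (p18) fell from 48.2 and 53.9 CPM to 18.2 and 24.7 CPM, and HMGA2, a chromatin protein of embryonic and tumour cells, from 265 and 247 CPM to 118 and 109 CPM.

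Epithelial genes moved both ways. Among junction and keratin genes, 13 of 38 were higher (34.2%) and 11 lower (28.9%), against 19.6% and 13.9% over all genes tested. Keratins of stratified epithelium came up from low levels: KRT14 from 3 and 1 counts to 125 and 142 (at least 45.8-fold), KRT13 from 7 and 6 counts to 295 and 303, KRT6B from 0.929 and 1.24 CPM to 20.8 and 22.9 CPM and KRT6A from 0.689 and 0.592 CPM to 12 and 13 CPM. The keratins of simple epithelium fell: KRT7 by 0.69 on the log2 scale (SE 0.11, adjusted p = 9.4e-06), KRT19 by 0.59 (SE 0.13, adjusted p = 0.000647; 0.103 with DESeq2) and, named after their values were seen, KRT8 by 0.83 and KRT18 by 0.90. Of 31 biliary and foregut lineage genes, 16 were higher and 4 lower (median 0.40), whereas in the shorter list of biliary epithelium markers 8 of 14 were lower. The lineage genes that were lower included HNF4G, HES1 and GRHL2, named after their values were seen, with log2 fold changes between -1.19 and -0.37. The GRHL2 call was lost without decitabine replicate 1 (adjusted p = 0.0593) and without decitabine replicate 2 (0.0591). CFTR, the bile duct chloride channel, rose from 4 and 9 counts to 100 and 78, MUC13 from 12 and 10 counts to 140 and 124, and MUC5AC, a secreted gastric mucin, from 572 and 630 CPM to 1040 and 1160 CPM (0.87 ± 0.11, adjusted p = 3.57e-07).

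Mesenchymal and extracellular matrix genes were higher in 28 of 50 tested members (56%) and lower in 7 (14%, median 0.85). Of all genes tested 19.6% were higher and 13.9% lower. SPARC, a collagen-binding protein often silenced by methylation, rose from 12 and 10 counts to 828 and 764 (log2 fold change 6.13), and COL4A1, a basement membrane collagen, from 29 and 35 counts to 1560 and 1373 (5.48 ± 0.17 SE, adjusted p = 3.31e-18). COL1A2 had 1 and 1 against 60 and 46 counts, and TWIST1, a transcription factor of mesenchymal transition, 1 and 1 against 51 and 39 counts (at least 15.4-fold higher). The highest member, CCN1, a YAP target, stood at 1250 and 1420 CPM against 1280 and 1420 CPM, and its arms overlapped (0.01, 95% confidence interval -0.20 to 0.23). Endothelial and fibroblast markers rose beside this list, as given above: CDH5, the endothelial cadherin, went from 11 and 6 counts to 269 and 226, and COL1A1 from 24.1 and 26.5 CPM to 143 and 169 CPM.

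Stress and lipid genes moved in opposite directions. Of 34 ATF4 and unfolded protein stress genes, 21 were higher (61.8%) and 2 lower (5.88%, median 0.53), against 19.6% and 13.9% over all genes tested. STC2, a secreted glycoprotein induced by ATF4, rose from 3.06 and 2.93 CPM to 242 and 242 CPM (6.34 ± 0.14, adjusted p = 5.42e-21), PSAT1, of serine synthesis, from 0 and 0 counts to 85 and 82 (at least 28.6-fold), and ERN1, the sensor IRE1, from 58.7 and 59.9 CPM to 157 and 156 CPM. The chaperone HSPA5 (BiP) rose from 858 and 851 CPM to 1140 and 1160 CPM (0.43 ± 0.10, adjusted p = 0.00155). Of 34 cholesterol and fatty acid synthesis genes, 21 were lower (61.8%) and 1 higher (2.94%, median -0.38), beside the same shares over all genes. SCD, the stearoyl-CoA desaturase, fell from 2350 and 2520 CPM to 791 and 801 CPM (-1.62 ± 0.10, adjusted p = 3.25e-12) and FASN, the fatty acid synthase, from 3670 and 4190 CPM to 2040 and 2350 CPM (-0.84 ± 0.11). Cytosolic ribosomal protein genes barely moved, with 4 of 78 higher (5.13%) and 3 lower (3.85%, median 0.04). Metallothioneins had 2 of 7 higher (28.6%, against 19.6% over all genes tested) and 0 lower. The numbers higher were 0 ribosomal and 0 metallothionein genes without DMSO replicate 1 or without decitabine replicate 2, and 1 of each without DMSO replicate 2.

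The steepest falls were of genes of mixed function, and a shared function was not tested. SIGLEC6, a sialic acid-binding lectin, fell from 9.97 and 10.3 CPM to 1.24 and 0.874 CPM (log2 fold change -3.26 ± 0.22 SE, adjusted p = 6.97e-12). INTS3, a subunit of the Integrator complex, fell from 16.4 and 18.6 CPM to 2.59 and 1.33 CPM (-3.15 ± 0.21), XYLT1, a xylosyltransferase of proteoglycan synthesis, from 6.74 and 8.03 CPM to 1.46 and 1.3 CPM (-2.42 ± 0.22; adjusted p = 0.107 with all 12 libraries in 1 fit) and FAT4, an atypical cadherin, from 140 and 132 CPM to 34.2 and 31 CPM (-2.06 ± 0.11, adjusted p = 2.12e-13). PZP, KCNA7, LRRN1, BTBD2, NTF4 and TRPC4 had log2 fold changes between -2.54 and -2.01. KCNA7 and NTF4 lie close together on the minus strand of chromosome 19, so their falls may not be separate. Arms without overlap were a condition for naming the genes of steepest fall. None of these genes reached the floor with decitabine. Of 29 mitochondrial genes tested, 13 were lower (44.8%) and 0 higher. Of all genes tested 13.9% were lower, and of the 75 in the highest class of DMSO level 52%. Whether mitochondrial genes differed from other genes of their level was not tested. MT-ND4, a subunit of respiratory complex I, stood at 3230 and 2480 CPM against 1690 and 1270 CPM (-0.95 ± 0.14, adjusted p = 2.61e-05). The mitochondrial share of counts was 2.9% and 2.5% with DMSO and 2.04% and 1.59% with decitabine.

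To see where HUCCT1 differed from the other line, the decitabine effect was compared with that in EGI-1, given 0.5 µM. Line and dose differ together and cannot be told apart. In a fit over the 8 DMSO and decitabine libraries of both lines, the effect differed for 3626 of 24577 genes (14.8%; edgeR interaction test, adjusted p under 0.05), being above that in EGI-1 for 1839 and below it for 1787. Without EGI-1 DMSO replicate 1 the number was 2241, and without EGI-1 DMSO replicate 2 it was 2152. In the same fit, EGI-1 had 74 genes higher and 1 lower. Of the 74, 53 (71.6%) were also higher in HUCCT1, where 4722 of the 24577 genes were higher. The 53 are 1.12% of the 4722. The size of the effect differed between lines, by the interaction test, for 45 of the 74.

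Of the 483 protein-coding genes switched on in HUCCT1, 334 were at the floor in both EGI-1 DMSO libraries, 306 of these stayed at the floor in both EGI-1 decitabine libraries, and 1 reached 10 counts in both. Among cancer-testis antigens, 3 of 42 had a called effect above that in EGI-1, and among germline genes 12 of 37, with 0 below in either list. Over all 24577 genes, 1839 were above and 1787 below. These numbers do not compare, since 30 of the 42 antigens and 17 of the 37 germline genes were at the HUCCT1 DMSO floor. Such members were followed only because of their decitabine counts, and their HUCCT1 effect could not be negative. At such low counts, a difference that was not called does not show that the effects were alike. In EGI-1 as a whole, 4 of 5374 silent protein-coding genes were switched on. The inflammatory list had 49 of 82 members with an effect above that in EGI-1 and 6 below, with a median log2 fold change of 0.19 in EGI-1. For the G2/M list the effect was below that in EGI-1 in 29 of 54 members and above it in 1 (median in EGI-1 -0.05), and for the replication-dependent histones below in 35 of 63 and above in 3 (median in EGI-1 0.00). CXCL8 had a log2 fold change of 5.54 in HUCCT1 and -0.04 in EGI-1 (difference 5.58, adjusted p = 6.68e-15), and STC2 6.34 and 0.29 (difference 6.05, adjusted p = 1.42e-15). The difference was called for 78 of the 124 named genes followed. NLRP1 was among those not called, with 2.62 in HUCCT1 and 2.59 in EGI-1 (adjusted p of the difference 0.972).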

How the data were processed

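RNA of the HUCCT1 cultures was sequenced, and the authors deposited 1 table of raw read counts per gene for all 12 libraries. Per the labels' processing notes, reads were trimmed with fastp and Trim Galore, aligned to GRCh38 with HISAT2 and counted with featureCounts. The study's methods describe RNA-seq of EGI-1 with other tools (STAR and RSEM), so the strand setting and the treatment of reads with several matches are not given in the sources used here for HUCCT1. The deposited counts were used as they stand, and no column of another sample was present. Gene names, types and positions came from GENCODE 44 (60437 of 60651 identifiers matched).

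The 4 HUCCT1 libraries were fitted alone with edgeR 4.0.16 in R 4.3.3: filterByExpr by group, TMM factors, robust quasi-likelihood test, Benjamini-Hochberg adjustment at 0.05. Errors after ± are standard errors of the log2 fold change, and the design leaves 2 residual degrees of freedom. A floor of 3 counts per library bounds folds against silent genes and covers counting error only. The difference between lines was an interaction term over 8 libraries. DESeq2 1.42.0, other scalings and filters, all 12 libraries in 1 fit, a replicate block and leaving out each library were tried as alternatives, and the procedure was tested on simulated counts. Replicates differed beyond sampling noise (chi-square per gene 8.01 and 7.27), so none was a library deposited again.

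Members and gene lists were chosen with earlier results of these data known. Named genes were the 10 largest rises and 10 largest falls among called protein-coding genes of at least 1 log2 CPM with separate arms (histone genes left out), the 8 called genes at the DMSO floor with the highest decitabine level, the 5 long non-coding RNAs of largest rise, the 4 largest calls and the highest member of each list, and 18 further genes; some list members are left out for length, and a few genes and 1 list that the rule covers are not reported here. DCK, MAEL, CXCL1, CXCL8, ICAM1, TNFAIP3, NFKBIA, KRT8, KRT18, CCNB2, HLA-C, RPS18 and MT-ND4 were added after their values were seen. RefSeq promoters matched 67.6% to 86.4% of the gene sets; a set under 80% is void for such a count, so windows at GENCODE canonical starts, which all genes have, were added after the data were seen.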

Additional observations from a re-analysis of the deposited data

Results flagged for a closer look

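The decitabine effect differed between HUCCT1 and EGI-1 by a test of the difference itself (edgeR interaction term over 8 libraries, adjusted p under 0.05) in 3626 genes. Among the genes picked for this comparison, the log2 effect in HUCCT1 minus that in EGI-1 was 10.91 for H4C6 (0 counts in both HUCCT1 DMSO libraries, so that the size depends on the prior count), 6.05 for STC2, 5.81 for CXCL1, 5.58 for CXCL8, 4.61 for IL6 and 2.38 for TNFAIP2. It was -1.43 for SCD, -1.28 for KRT7, -1.04 for LMNB1, -0.84 for BRCA1, -0.67 for KRT19, -0.64 for UHRF1 and -0.59 for MKI67. Doses were 1 µM in HUCCT1 and 0.5 µM in EGI-1, so line and dose cannot be told apart. Groups of 2 libraries are too small for a search for outlying samples.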

How the results depend on the processing

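With 2 libraries per arm, the count of calls moved with the processing more than the directions did. Of the 7525 genes called, the number was 7523 with DESeq2's size factors in edgeR, 7570 with upper-quartile scaling, 8026 with no filter, 5308 with a stricter filter, 5678 with DESeq2, 8645 with all 12 libraries in 1 fit, and 5464 to 6569 with 1 library left out. The stricter filter removes genes that are low in 1 arm: 2560 genes were then higher, 1154 passed a log2 fold change of 1, and the share of calls that were higher was 48.2% against 58.5%. It left 17 germline genes and 14 cancer-testis antigens higher. The difference between lines was called for 2152 to 3298 genes with 1 library left out, and the cause was not tested. None of the 124 genes followed reversed under the alternatives of the HUCCT1 fit, of which the stricter filter kept 109. The numbered replicates were not shown to be paired. Their deviations correlated at 0.254 over 2 pairs. The libraries of a pair share a replicate number and carry consecutive library numbers in the column headers. With a replicate block, 10136 genes were called, 7514 of them shared with the fit without it, and the difference between lines was called for 5521 genes with a block within each line. The share of G2/M genes with TTTGAA rose from 63.2% with RefSeq promoters to 81.8% with GENCODE starts.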
